A study of Mus musculus with 5 samples.

Results

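Loss of Notch2 was set directly against loss of Notch1 in fetal mouse muscle progenitor-lineage cells, in 3 of the 5 libraries of the study: both Notch2 conditional knockout (cKO) libraries, tagged Em3 and Em4, and the single Notch1 cKO library, tagged Em8. Paired Notch2 cKO values are given as Em3, then Em4, and paired WT values as Em2, then Em4; Em3 and Em4 named without a group are the Notch2 cKO libraries. The genes compared were the 11543 of 25873 named genes whose mean over all 5 libraries reached 1 RPKM (reads per kilobase of gene, scaled to the library total), and a gene was counted where both Notch2 cKO values lay on the same side of the Notch1 cKO value, which held for 8408 genes. All fetuses were C57BL/6J at embryonic day E16.5, and all carried Pax7-CreER, a tamoxifen-dependent recombinase expressed from the progenitor gene Pax7, and the Rosa-tdTomato reporter. The knockouts also carried Notch1 f/f or Notch2 f/f, and the wild-type (WT) controls carried no floxed allele in the stated genotype. Every dam, those of the WT fetuses included, received oral tamoxifen at 240 mg per kg of body weight for 2 days from E12.5, so deletion and labelling began only in cells that expressed Pax7 then. Total RNA came from Lin-/tdTomato+ cells of dissociated limb muscle, after staining for CD31, CD45 and Ter119. The 2 WT libraries (Em2 and Em4) entered the test's estimate of spread and are quoted as values beside each gene, while no WT mean was used beyond the filter on low genes. The labels do not say whether libraries of a group came from separate fetuses or litters, so p-values measure only the spread between these libraries, which may be technical.

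Notch receptors are membrane proteins that are cleaved when a ligand of the Delta or Jagged families on a neighbouring cell binds them. The freed intracellular part joins RBPJ in the nucleus and turns on repressors of the Hes and Hey families. In fetal muscle this signal is known for holding progenitors back from differentiation, in which Myod1 and Myog switch on fusion, sarcomere and calcium-handling genes. Notch1 and Notch2 are separate receptors with overlapping signalling.

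Library totals recovered from the RPKM values ran from 20740258 to 28827897 reads, and the median gene compared had a mean of 738 reads. Over the genes compared, log2(RPKM + 1) in Notch1 cKO correlated with Em3 and Em4 at r = 0.980 and 0.967, and both Notch2 cKO libraries with each other at 0.976, across genes, which are not independent replicates. The Y-linked genes Ddx3y (21.1 to 28.7 RPKM) and Eif2s3y (25.6 to 44.2 RPKM) were present in every library and Xist was at or below 0.0135 RPKM, so no library stood apart by sex. The muscle markers Myf5, Myod1, Myog and Des were well above 1 RPKM in all 5 libraries and Pax7 was at 4.15 to 13.4 RPKM. The column names also carry digits of unstated meaning, which were the same for the Notch1 cKO library and Em3, another set shared by Em4 and WT Em4, and of a further form for WT Em2. The difference within shared digits is therefore Em3 minus Notch1 cKO, the value obtained without Em4. The share of named genes listed at 0 was 26.9% in Notch1 cKO, 12.7% in Em3 and 24.5% in Em4.

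Both Notch2 cKO libraries were above Notch1 cKO for 5503 genes (47.7% of the genes compared) and below it for 2905 (25.2%). Together that is 72.8%, where 66.7% of genes would have both values on 1 side if the 3 libraries were exchangeable. The excess above Notch1 cKO moved with the scale of the libraries. The median difference over all genes was 0.12 on the log2(RPKM + 1) scale, and it was 0.01 after median-of-ratios scaling, which gave 4236 genes above and 3994 below. Differences are given below as Notch2 cKO minus Notch1 cKO as log2(RPKM + 1). Changes of low genes are understated on this scale, and values are to be read against that median of 0.12. A gap of at least 1 on this scale, or about 2-fold, between Notch1 cKO and the nearer Notch2 cKO library was found for 65 genes above (0.563%) and 42 below (0.364%), for 42 above and 69 below after median-of-ratios scaling, and for 36 and 61 after quantile normalization. Just inside this limit lay Klhl31 (gap 1.003), Ndufa4l2 lay at it, and just outside it Zc3h14 (0.994) and H1f5 (-0.991).

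Limma called 32 genes higher in Notch2 cKO (0.277% of the genes compared) and 24 lower (0.208%), at a Benjamini-Hochberg adjusted p under 0.05. The fit takes the spread of the lone Notch1 cKO library to equal that of the other groups. Of the 32 genes called higher, 30 had both Notch2 cKO libraries above Notch1 cKO, and the 24 called lower all had both below it. The 2 exceptions were the cartilage genes Matn1 and Col9a3, which were high in Em4 alone. After median-of-ratios scaling 14 genes were called higher and 18 lower, 30 of them among the 56. Of the genes called higher and named below, Casq2, Atp2a1, Rgs16, Sox8, Kifc1, Rnd3, Mospd1 and Car3 lost their calls under that scaling. Mia, Col9a2, Col9a3, Matn1, Mir5124a and Snora20 lost theirs too. Of the genes called lower, Rps3a1, Crip1, Mt2 and Lockd, named below, lost theirs, as did Rn18s, which is not described. When single libraries were left out in turn, 28 of the 56 calls were kept without Em3, 19 without Em4, 38 without WT Em2 and 41 without WT Em4, and 9 were kept in all 4 fits: Cma1, Cpa3, Ftl1-ps2, Hba-a1, Hbb-bs, Mir1898, Mir3960, Snord57 and Trbd1. Of the 56 genes, 13 had a mean of fewer than 50 reads, the last 4 among them. Without Em3 or Em4 the fit set 1 knockout library against 1. Its 1 residual degree of freedom came from the WT pair, and its prior degrees of freedom were infinite. Adjusted p-values without Em3 or Em4 therefore hold no measure of the spread within Notch2 cKO. Of the 32 called higher, 6 reached the filter only through their Notch2 cKO values (Cpa3, Mir3960, Mir5124a, Snora20, Snord57 and Trbd1), so that their direction was fixed by the filter and nothing is read from it. Limma voom on recovered reads kept 13: Cma1, Cpa3, Dner, Lypd6 and Notch1 higher, and Crip1, Fosb, Ftl1-ps2, Hba-a1, Hba-a2, Hbb-b1, Hbb-bs and Rps3a1 lower. None of the 56 was kept when a trend with gene length was removed (lowest adjusted p = 0.141 among them) or with no filter on low genes (0.860).

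**Figure D1:**
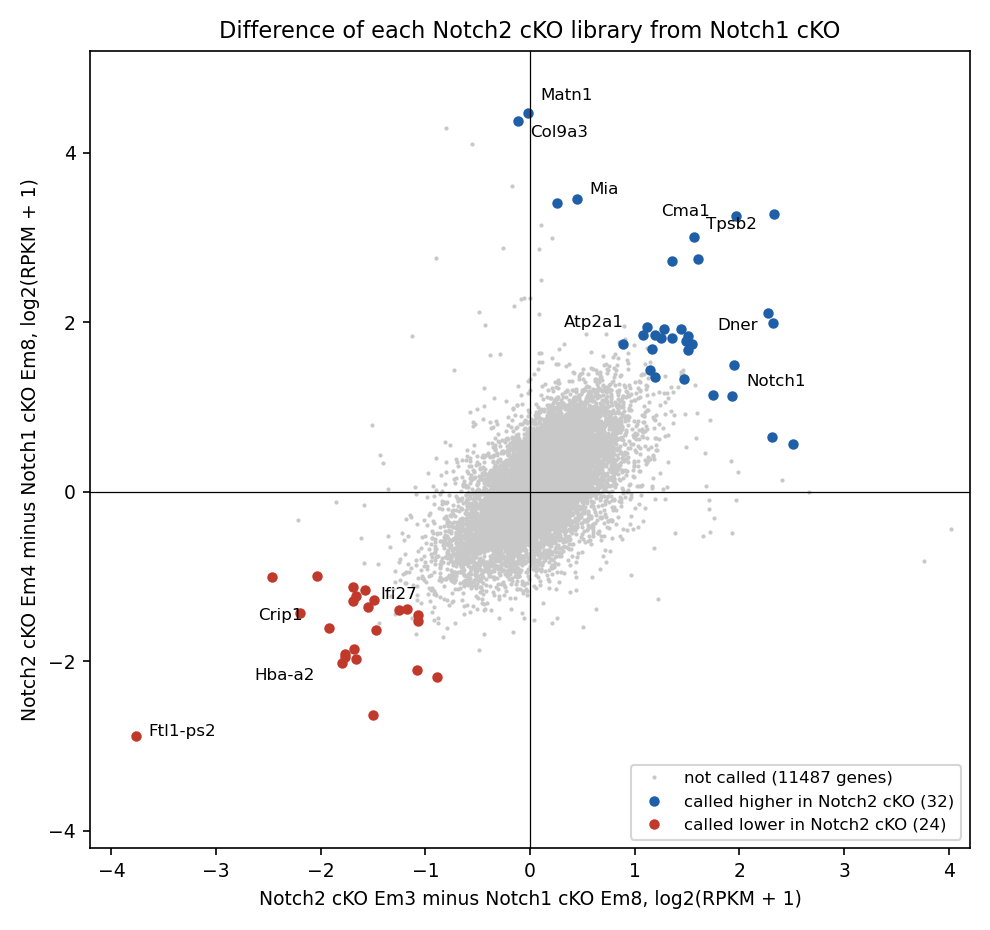
Each point is 1 of the 11543 genes compared, placed by its difference from Notch1 cKO in Em3 (horizontal) and in Em4 (vertical), both in log2(RPKM + 1); both axes share the Notch1 cKO library, so the slope of the cloud is no result. The 30 genes called higher with both libraries above Notch1 cKO lie in the upper right quadrant, Matn1 and Col9a3 lie high on the vertical axis only, and the 24 called lower lie in the lower left.

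The targeted genes separated the 2 knockouts at Notch1 but not at Notch2. On the minus strand of chromosome 2 (GRCm38, 26457903 to 26516663), Notch1 (ENSMUSG00000026923.15) was at 2.33 RPKM in Notch1 cKO, and at 11.8 and 8.39 RPKM in the Notch2 cKO pair, with 7.26 and 13.5 RPKM in WT Em2 and Em4. Notch1 cKO was the lowest of the 5 libraries, and both Notch2 cKO values lay within the WT range (difference 1.72, SE 0.39, limma adjusted p = 0.0148, which became 0.241 without Em3). Notch2 (ENSMUSG00000027878.11, chromosome 3, 98013527 to 98150361, plus strand) was at 3.90 RPKM in Notch1 cKO, at 3.35 and 2.03 in the Notch2 cKO pair, and at 2.40 and 4.17 in WT. Em3 thus lay within the WT range and Em4 below it, and the difference did not pass (-0.43, SE 0.40, adjusted p = 0.814). A whole-gene RPKM counts reads outside any floxed exons, and the exons deleted are not named in the labels, so these values do not measure deletion of Notch2. Notch3, another receptor of the family, was at 11.04 RPKM in Notch1 cKO and at 6.48 and 5.97 in Notch2 cKO (-0.74, adjusted p = 0.621).

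Among ligands, Dner, a membrane protein of neurons reported to bind Notch1, was higher in Notch2 cKO. Dner (chromosome 1, 84369839 to 84696221, minus strand) was at 2.13 RPKM in Notch1 cKO, at 7.94 and 10.2 in the Notch2 cKO pair, and at 4.85 and 5.14 in WT. The Notch1 cKO library lay below all others and both Notch2 cKO libraries above (difference 1.67, SE 0.39, limma adjusted p = 0.0207, 0.0777 without Em3 and 0.525 without Em4). Dll1, the Delta-like ligand made by differentiating myoblasts, was at 7.67 RPKM in Notch1 cKO and at 21.1 and 15.8 in Notch2 cKO, with 7.71 and 11.5 in WT (1.15, adjusted p = 0.194). Jag1 was at 5.86 against 5.08 and 4.76 RPKM, and Jag2 at 1.16 against 2.06 and 1.87 RPKM. Dlk1, a non-canonical ligand abundant in fetal muscle, was at 404 RPKM against 320 and 381. Of 6 ligand genes compared, 4 had both Notch2 cKO libraries above Notch1 cKO, 2 had both below, and Dner alone passed the test.

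No canonical Notch target passed the test between the knockouts. Hes1, a direct target, was at 96.1 RPKM in Notch1 cKO, 162 and 143 in the Notch2 cKO pair, and 271 and 194 in WT Em2 and Em4. The 3 genotypes did not overlap for Hes1, with Notch1 cKO lowest and WT highest, but the difference between the knockouts was 0.66 (SE 0.33, limma adjusted p = 0.570). Hey1 was at 13.7 RPKM in Notch1 cKO and at 18.6 and 30.7 in Notch2 cKO, either side of the WT values of 24.4 and 27.1 (0.76, adjusted p = 0.522). Heyl was at 12.8 RPKM against 12.4 and 15.3, and Nrarp, a feedback inhibitor of the pathway, at 2.50 against 2.32 and 3.48. Hes6, a Hes family member of myogenic cells, was at 114.5 RPKM in Notch1 cKO and 201 and 148 in Notch2 cKO, with 141 and 164 in WT (0.59, adjusted p = 0.635). Id1 and Id3, inhibitors of myogenic transcription factors, were at 243 RPKM against 309 and 361, and at 832 against 1010.3 and 926. Snai1, a repressor of the epithelial programme, was at 0.788 RPKM in Notch1 cKO and at 3.91 and 3.67 in Notch2 cKO, with 2.474 and 3.001 in WT (1.42, adjusted p = 0.0654). Of 15 target genes compared, 6 had both libraries above, 2 both below and 7 neither, with a median of 0.14 beside 0.12 over all genes. Of 29 genes of Notch processing and nuclear machinery, 14 were above and 6 below with none called. These shares (48.3% and 20.7%) were near those over all genes (47.7% and 25.2%). Numb, an inhibitor of Notch, was at 2.25 RPKM against 4.42 and 7.57 (1.07, adjusted p = 0.345), and Rbpj, the pathway's DNA-binding protein, at 12.2 against 13.2 and 10.3.

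Genes of muscle commitment, fusion and contraction had both Notch2 cKO libraries above Notch1 cKO more often than genes at large. This held for 25 of 33 commitment and fusion genes (4 below, median 0.57, none called) and for 28 of 35 sarcomere genes (4 below, median 0.44, 2 called higher), where all genes gave 47.7% above. The called members of the sarcomere list were Mybph and Casq2, the latter a protein of the sarcoplasmic reticulum. Actc1 and Myl4 were on both lists, so the counts share these genes. Of 12 excitation and calcium-handling genes, 7 were above and 1 below, with a median of 0.29 and 1 called higher; after median-of-ratios scaling 6 were above and 4 below, and after quantile normalization the median was 0.11. No set test was run on these lists. The median was close in both Notch2 cKO libraries for commitment and fusion (0.49 in Em3 and 0.66 in Em4) and for sarcomere genes (0.45 and 0.44), and after median-of-ratios scaling 23 of 33 and 25 of 35 were still above.

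The called muscle genes were Mybph, Casq2 and Atp2a1. Mybph, which binds myosin in thick filaments (chromosome 1, 134193448 to 134201232, plus strand), was at 6.21 RPKM in Notch1 cKO, 17.5 and 24.3 in the Notch2 cKO pair, and 5.87 and 10.7 in WT. Both Notch2 cKO libraries lay above the other 3, and Notch1 cKO lay within the WT range (difference 1.58, SE 0.38, limma adjusted p = 0.0219, 0.702 without Em4). Casq2, a calcium-storing protein of the sarcoplasmic reticulum, was at 3.99 RPKM in Notch1 cKO, 10.4 and 16.9 in Notch2 cKO, and 4.44 and 7.16 in WT (1.52, SE 0.39, adjusted p = 0.0473). Atp2a1, the calcium pump of fast fibres (chromosome 7, 126445858 to 126463108, minus strand), was at 8.65 RPKM in Notch1 cKO, 19.4 and 33.8 in Notch2 cKO, and 10.4 and 18.2 in WT (1.47, SE 0.36, adjusted p = 0.0328). For both genes Notch1 cKO was the lowest library and Notch2 cKO the highest 2. Em4 was the higher of the pair for all 3 genes, and without it the adjusted p of Casq2 and Atp2a1 was 0.9996. The call of Casq2 was also lost without Em3 (adjusted p = 0.0645), and that of Atp2a1 without WT Em2 (0.0548). After median-of-ratios scaling their adjusted p was 0.0609 and 0.101.

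For the myogenic regulators, which did not pass, both Notch2 cKO libraries also stood above Notch1 cKO. Myog, which drives terminal differentiation, was at 944 RPKM in Notch1 cKO, 1655 and 1737 in the Notch2 cKO pair, and 1053 and 1272 in WT (0.84, limma adjusted p = 0.560). Myod1, which commits cells to muscle, was at 109 RPKM against 180 and 188, with 135 and 167 in WT (0.75, adjusted p = 0.501). In both genes Notch1 cKO was lowest, Notch2 cKO highest and WT between them. Mef2a, a partner of the myogenic factors, was at 12.9 RPKM against 34.3 and 31.6 (1.29, adjusted p = 0.0539), and Dok7, needed for the neuromuscular synapse, at 8.95 against 23.1 and 21.4 (1.22, adjusted p = 0.153). Kremen2, of the commitment and fusion list, was at 1.03 RPKM against 3.42 and 3.49 (1.13, limma adjusted p = 0.241). Embryonic myosin Myh3 was at 7.61 RPKM against 17.6 and 19.5 (1.18, adjusted p = 0.183), and skeletal actin Acta1 at 186 against 228 and 281 (0.44, adjusted p = 0.749). The fusion proteins Mymk and Mymx were at 117 RPKM against 157 and 191, and at 218 against 313 and 268. Cdkn1c, a cell cycle inhibitor of differentiating muscle and the most abundant gene of its list, was at 7246 RPKM against 7349 and 7493.

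The 250 bases upstream of the transcription start are shown for the 3 called muscle genes, and for Chrna1, a subunit of the muscle acetylcholine receptor (35.1 RPKM in Notch1 cKO, 66.4 and 85.1 in Notch2 cKO; 1.08, adjusted p = 0.143), chosen after its values were seen. Chrna1 is a textbook target of MYOD1 and MYOG, which bind E-boxes. Capitals mark the E-box CAGCTG, which reads the same on both strands; sequences are from RefSeq on GRCm38.p6, written 5′ to 3′ on the strand of the gene. The windows are chr1:134193198-134193447 (plus strand), chr7:126463074-126463323 (minus), chr3:102086165-102086414 (plus) and chr2:73580339-73580588 (minus), in the order shown.
Mybph: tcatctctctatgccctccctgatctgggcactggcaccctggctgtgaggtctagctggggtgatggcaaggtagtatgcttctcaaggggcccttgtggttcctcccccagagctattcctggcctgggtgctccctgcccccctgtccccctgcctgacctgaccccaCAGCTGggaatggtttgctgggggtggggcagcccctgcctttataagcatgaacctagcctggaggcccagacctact
Atp2a1: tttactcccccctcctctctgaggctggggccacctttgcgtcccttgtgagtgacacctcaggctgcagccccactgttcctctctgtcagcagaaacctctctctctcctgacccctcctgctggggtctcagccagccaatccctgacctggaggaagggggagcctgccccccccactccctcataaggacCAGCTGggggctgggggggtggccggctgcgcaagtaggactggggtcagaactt
Casq2: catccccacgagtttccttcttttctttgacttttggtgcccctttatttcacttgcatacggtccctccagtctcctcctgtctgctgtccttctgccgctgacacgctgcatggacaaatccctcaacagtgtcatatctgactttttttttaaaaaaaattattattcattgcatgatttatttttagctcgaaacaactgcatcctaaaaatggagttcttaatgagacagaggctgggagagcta
Chrna1: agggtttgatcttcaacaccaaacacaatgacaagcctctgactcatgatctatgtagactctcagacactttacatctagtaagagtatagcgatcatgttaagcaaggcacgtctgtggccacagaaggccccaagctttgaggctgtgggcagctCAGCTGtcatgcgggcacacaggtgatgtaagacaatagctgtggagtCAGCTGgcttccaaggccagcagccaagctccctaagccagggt
CAGCTG lay 74 bases before the start in Mybph, 50 in Atp2a1, and 39 and 87 in Chrna1, and this window of Casq2 held no CAGCTG. Other E-box sequences were not marked or counted in any window. Of 8880 genes compared that were matched to a promoter in the RefSeq table, 1017 (11.45%) held CAGCTG in the same window. Of 78 genes on the 3 muscle lists, 51 were matched and 19 of them (37.25%) held it. Among genes called higher with both libraries above, 18 of 30 were matched and 5 (27.78%) held it, and among those called lower 12 of 24 were matched and 2 (16.67%) held it. A match describes these letters only, and binding was not measured.

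**Figure D2:**
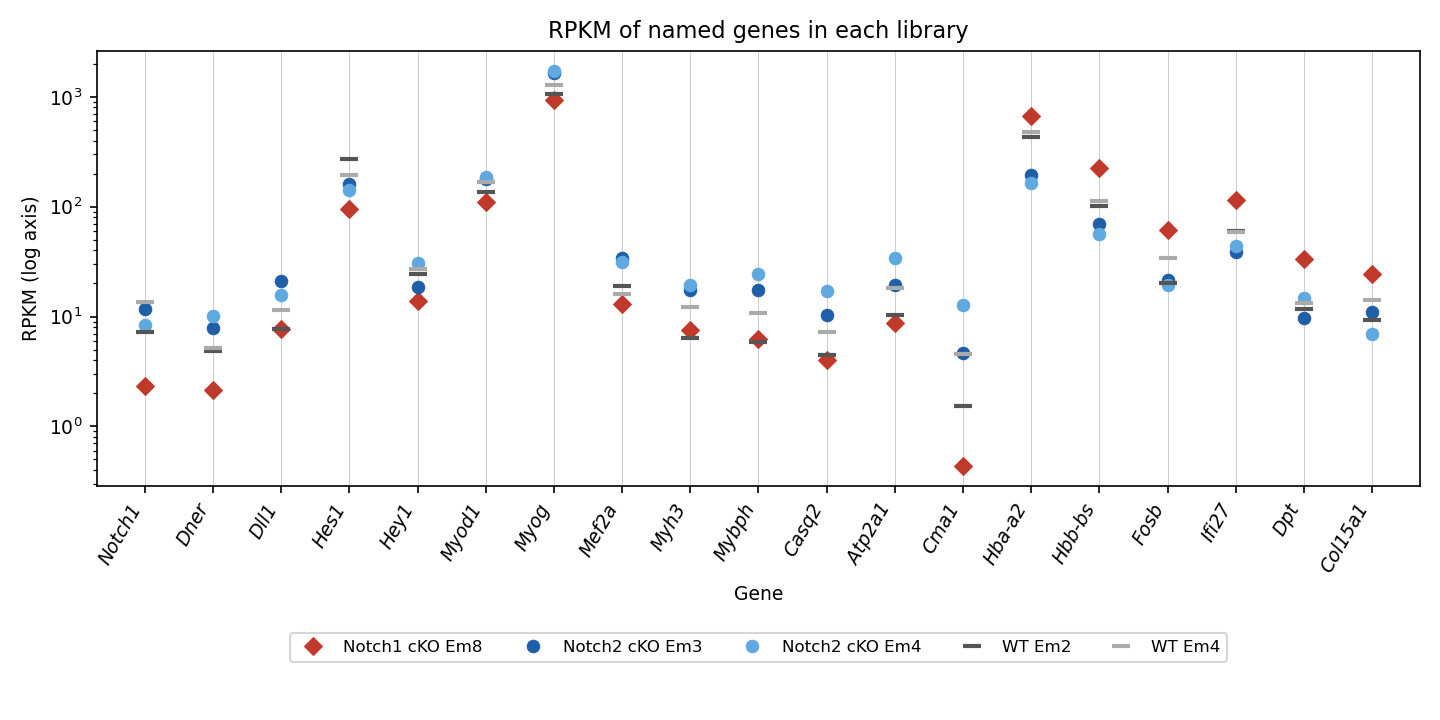
RPKM of 19 genes in each of the 5 libraries on a log axis, with 1 point per library and no error bars, since Notch1 cKO is a single library. For Notch1, Dner and the muscle genes the red diamond of Notch1 cKO lies below both blue circles of Notch2 cKO, and for the globins, Fosb, Ifi27, Dpt and Col15a1 it lies above them; Myog, Mef2a, Myh3, Dll1, Hes1, Hey1, Myod1 and Col15a1 did not pass the test.

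Progenitor genes leaned the other way without passing. Of 29 genes of muscle progenitors and quiescence, 8 had both Notch2 cKO libraries above Notch1 cKO and 14 both below (median -0.18, none called). Pax7, the transcription factor of the progenitor pool and the gene that drives the recombinase, was at 13.4 RPKM in Notch1 cKO, 10.7 and 4.15 in the Notch2 cKO pair, and 9.90 and 11.96 in WT (difference -0.89, limma adjusted p = 0.504). Notch1 cKO was the highest of the 5 libraries and Em4 the lowest. Pax3 was at 1.58 RPKM against 1.43 and 1.13, and Myf5, which marks early myoblasts, at 44.8 against 32.5 and 41.8, with 54.3 and 50.4 in WT. Calcr, a receptor of quiescent satellite cells, was at 3.81 RPKM against 1.06 and 2.44 (-0.85, adjusted p = 0.518), and the adhesion protein Tenm4 at 6.41 against 4.38 and 2.68. In bulk RNA fewer cells of a type and less RNA per cell cannot be told apart, here and in the muscle lists above.

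Genes of mitosis followed the muscle genes in direction. Of 32 mitosis and G2/M genes, 26 had both Notch2 cKO libraries above Notch1 cKO and 3 both below (median 0.32; 21 and 5 after median-of-ratios scaling), with none called. Kif20a, a motor of cytokinesis, was at 7.94 RPKM against 12.9 and 22.6 (1.02, limma adjusted p = 0.338). The mitotic kinase Aurka was at 41.8 RPKM against 69.0 and 60.5, and cyclin Ccnb1 at 56.3 against 79.7 and 101. The proliferation marker Mki67 did not share this order, at 30.0 RPKM against 30.7 and 18.3. DNA replication and G1/S genes were close to all genes, with 20 of 34 above and 8 below (median 0.16); Rrm2, a subunit of ribonucleotide reductase, was at 68.9 RPKM against 110 and 161 (0.94, adjusted p = 0.257). Kifc1, a mitotic kinesin outside these lists, was called higher, at 3.15 RPKM in Notch1 cKO, 14.8 and 8.08 in the Notch2 cKO pair, and 7.43 and 3.79 in WT (1.53, SE 0.40, adjusted p = 0.0473). Its call was lost without Em3 (adjusted p = 0.542), Em4 (0.0641) or WT Em2 (0.0575).

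Among cell cycle inhibitors, Rb family members and D cyclins, 5 of 15 were above and 4 below, and none was called. These shares were 33.3% and 26.7%, beside 47.7% and 25.2% over all genes. Rb1 was at 13.5 RPKM against 23.5 and 21.4. Of 23 p53 target genes, 12 were above and 2 below (52.2% and 8.70%). The share above and the median of 0.19 were near those of all genes (47.7% and 0.12). Pmaip1, coding for the apoptosis inducer NOXA, was called higher, at 4.82 RPKM in Notch1 cKO, 15.6 and 17.6 in Notch2 cKO, and 7.08 and 5.49 in WT. Notch1 cKO was its lowest library and both Notch2 cKO libraries were well above the other 3 (difference 1.59, SE 0.38, limma adjusted p = 0.0228; 0.125 without Em3 and 0.467 without Em4). Aen, an apoptotic nuclease of the same list, was at 7.71 RPKM against 14.4 and 13.1 and did not pass.

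Further genes called higher in Notch2 cKO included signalling and cytoskeletal regulators. Rnd3, a protein that opposes actomyosin tension, was at 29.5 RPKM in Notch1 cKO, 67.2 and 96.9 in the Notch2 cKO pair, and 44.2 and 42.2 in WT (difference 1.42, SE 0.32, limma adjusted p = 0.0148). Sox8, a transcription factor of satellite cells, was at 10.6 RPKM against 37.8 and 24.6, and Rgs16, an inhibitor of G protein signalling, at 10.3 against 30.3 and 27.5 (adjusted p = 0.0295 and 0.0387). In WT these 2 genes were at 10.54 and 15.5 RPKM and at 10.2 and 13.9 RPKM. Notch1 cKO thus lay only just inside the low end of the WT range, and Notch2 cKO above it. Lypd6, a modulator of Wnt signalling, was at 1.57 RPKM against 6.49 and 7.63 (WT 4.17 and 5.44; 1.64, adjusted p = 0.0242), Tm6sf1 at 2.38 against 8.17 and 11.8 (1.68, adjusted p = 0.0207), and Mospd1 at 23.2 against 52.6 and 64.4 (1.29, adjusted p = 0.0387). For these 3 genes Notch1 cKO was below, and both Notch2 cKO libraries above, the WT values. Without Em4 the adjusted p was 0.470 for Rnd3, 0.241 for Rgs16, 0.463 for Lypd6, 0.686 for Tm6sf1 and 0.542 for Mospd1. Without Em3 it was 0.385 for Sox8, 0.235 for Rgs16, 0.106 for Lypd6, 0.0521 for Tm6sf1 and 0.0562 for Mospd1, and without WT Em2 it was 0.0561 for Mospd1. Genes with a wide gap that did not pass included the tubulin Tuba4a (4.58 RPKM against 15.6 and 12.3, adjusted p = 0.0616), the muscle heat-shock protein Hspb3 (4.31 against 12.7 and 11.02) and Mycn (3.02 against 8.43 and 8.04).

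The adult globins had the reverse order, highest in Notch1 cKO. Hba-a2, an alpha-globin of red cells (chromosome 11, 32296489 to 32297298, plus strand), was at 676 RPKM in Notch1 cKO, 193 and 165 in the Notch2 cKO pair, and 431 and 478 in WT (difference -1.91, SE 0.35, limma adjusted p = 0.000336). Hba-a1 was at 347 RPKM against 101 and 89.0 (WT 180 and 252; -1.86, adjusted p = 0.000250), Hbb-bs at 224 against 70.0 and 56.3 (WT 101 and 112; -1.82, adjusted p = 0.000250) and Hbb-b1 at 499 against 154 and 137 (WT 266 and 373; -1.77, adjusted p = 0.000849). For all 4 globins the WT values lay between Notch1 cKO above and Notch2 cKO below. Alpha-globins share most of their sequence with each other, as do the adult beta-globins, so the split of reads within each pair is uncertain. The calls of Hba-a2 and Hbb-b1 were lost without Em4 (adjusted p = 0.182 and 0.151). Of 9 erythroid markers compared, 6 were below and 3 above. Alas2, the erythroid enzyme of haem synthesis, was at 2.75 RPKM against 1.51 and 1.45, while the embryonic globin Hbb-y was at 0.443 against 0.779 and 1.07. The 13 erythroid markers summed to 1758 RPKM in Notch1 cKO, 537 and 465 in Notch2 cKO, and 999 and 1237 in WT, in cells from a sort stained with the red cell antibody Ter119. The part of red cell RNA in the gene calls was not tested.

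Extracellular matrix genes were mostly on the side of Notch1 cKO. Of 34 basal lamina and matrix genes, 25 had both Notch2 cKO libraries below Notch1 cKO and 1 (Nid2) both above, with a median of -0.44 and none called. Col15a1, a collagen of the muscle basement membrane, came nearest to the threshold, at 24.3 RPKM in Notch1 cKO, 10.9 and 6.88 in the Notch2 cKO pair, and 9.36 and 14.1 in WT (-1.38, limma adjusted p = 0.0616). Col5a1 was at 51.2 RPKM against 30.4 and 27.8, and Lamc1, a laminin chain, at 29.0 against 18.6 and 18.5. The abundant Sparc was at 801 RPKM against 526 and 578, with 526 and 649 in WT. Col3a1, a fibrillar collagen of fibroblasts, did not share the order, at 148 RPKM in Notch1 cKO and 99.6 and 183 in Notch2 cKO. Removing the trend with gene length left the median of this list at -0.41, and the list's median gene length of 5937.5 bases was above the 2617 of all genes.

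Dpt, the matrix protein dermatopontin (chromosome 1, 164796644 to 164824266, plus strand), was the only called gene on the interstitial fibroblast list. It was at 33.6 RPKM in Notch1 cKO, 9.76 and 14.9 in the Notch2 cKO pair, and 11.7 and 13.2 in WT, so Notch1 cKO stood apart from the other 4 libraries (-1.41, SE 0.36, limma adjusted p = 0.0425). The call was lost when any 1 of the 4 other libraries was left out, at 0.363 and 0.0574 without Em3 and Em4 and 0.0575 and 0.0536 without WT Em2 and Em4. Of 16 fibroblast markers compared, 6 were below, none above and 10 on neither side. The 20 markers summed to 571 RPKM in Notch1 cKO, 385 and 611.7 in the Notch2 cKO pair, and 277 and 427 in WT, so Em4 exceeded Notch1 cKO in fibroblast RNA as a sum. The part of fibroblast RNA in the matrix values was not tested.

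Interferon response genes also lay below Notch1 cKO, with 13 of 18 below and 2 above (median -0.44, 1 called lower). Ifi27, an interferon-inducible mitochondrial protein (chromosome 12, 103434211 to 103440239, plus strand), was at 114 RPKM in Notch1 cKO, 38.4 and 43.8 in the Notch2 cKO pair, and 59.7 and 58.6 in WT. Notch1 cKO was the highest library and both Notch2 cKO libraries the lowest (-1.46, SE 0.32, limma adjusted p = 0.0100, 0.0777 without Em3). Ifitm3, an antiviral membrane protein, was at 151 RPKM against 67.6 and 78.2 (-1.05, adjusted p = 0.153), and Ifi35 at 12.1 against 7.09 and 7.17. H2-K1, which displays antigens, was at 2.97 RPKM against 3.69 and 2.99. Classic induced genes such as Isg15, Irf7, Ifit1 and Mx1 fell below the filter of a mean of 1 RPKM.

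Fosb, an immediate early transcription factor (chromosome 7, 19302696 to 19310051, minus strand), was at 61.5 RPKM in Notch1 cKO, 21.6 and 19.2 in the Notch2 cKO pair, and 20.0 and 34.0 in WT. Notch1 cKO exceeded the other 4 libraries (difference -1.55, SE 0.34, limma adjusted p = 0.00982, 0.0736 without Em4). Its relatives did not share this, with Fos at 707 RPKM against 705 and 512 and Junb at 685 against 673 and 647. Of 26 immediate early and dissociation genes, 9 were above and 6 below (34.6% and 23.1%, beside 47.7% and 25.2% over all genes).

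Other called genes higher in Notch1 cKO had varied roles. Crip1, a LIM domain protein (chromosome 12, 113146316 to 113153879, plus strand), was at 2072 RPKM in Notch1 cKO, 546 and 679 in the Notch2 cKO pair, and 1719 and 952 in WT (difference -1.76, SE 0.41, limma adjusted p = 0.0173). Ndufa4l2, a hypoxia-induced mitochondrial protein, was at 71.9 RPKM against 16.7 and 35.4, with 15.5 and 18.1 in WT (-1.52, limma adjusted p = 0.0148). Notch1 cKO was its highest library, and Em4 also lay above WT. The chemokine-like Rarres2 was at 34.99 RPKM against 11.03 and 15.1, with 12.1 and 10.4 in WT, and the metal-binding protein Mt2 at 342 against 151 and 130, with 184 and 98.8 in WT (both adjusted p = 0.0473). Rbp7, a retinol-binding protein, was at 69.7 RPKM against 20.9 and 27.9, Fxyd1, a regulator of the sodium pump, at 45.6 against 13.7 and 18.9, and Ntn5, of the netrin family, at 58.9 against 20.3 and 23.7 (adjusted p = 0.0105, 0.0218 and 0.0207). The WT values of these 3 genes lay between the knockouts. Without Em3 the adjusted p was 0.581 for Crip1, 0.404 for Ndufa4l2, 0.334 for Rarres2, 0.149 for Mt2, 0.116 for Rbp7, 0.193 for Fxyd1 and 0.126 for Ntn5. Without Em4 it was 0.956 for Crip1, 0.113 for Rarres2, 0.795 for Mt2 and 0.0527 for Ntn5, and the call of Rarres2 was lost when either WT library was left out (0.0634 and 0.0568). Rnu7, a small nuclear RNA, was also called, but on a mean of 9.4 reads.

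Ftl1-ps2, a processed pseudogene of ferritin light chain, had the widest difference of any called gene and was singled out after its values were seen. It was at 239 RPKM in Notch1 cKO, 16.6 and 31.5 in the Notch2 cKO pair, and 19.0 and 37.2 in WT (-3.32, SE 0.34, limma adjusted p = 2.81e-12). Notch1 cKO alone was high. The parent gene Ftl1 was at 256 RPKM against 206 and 196, with 304 and 200 in WT (-0.35, adjusted p = 0.830), and the split of reads between the near-identical copies is uncertain.

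Ribosomal protein genes lay almost wholly on the side of Notch1 cKO. Of 58, 54 had both Notch2 cKO libraries below Notch1 cKO and 1 above (median -0.60, 1 called lower), and Rps28 was at 542 RPKM against 314 and 269, with 729 and 344 in WT. Rps3a1, the called member, was at 777 RPKM in Notch1 cKO, 367 and 180 in the Notch2 cKO pair, and 777 and 687 in WT (-1.59, limma adjusted p = 0.0185; 0.0531 without Em3 and 0.9996 without Em4). Oxidative phosphorylation genes of the nucleus were below for 35 of 52 (median -0.35), with Cyc1, a subunit of complex III, at 2232 RPKM against 913 and 1170. Mitochondrially encoded genes were below for 9 of 13 (median -0.23), with ND2 at 1641 RPKM against 1099 and 885, and replication-dependent histones were below for 28 of 44 (median -0.30), with H4c6 at 5.77 against 1.70 and 1.89. None of the latter 3 lists had a called gene.

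These lists hold short genes, and the comparison moved with gene length. Across all genes the difference had a Spearman correlation of 0.147 with length, and the median length was 616.5 bases for genes called lower, 1915.5 for genes called higher and 2617 for all genes. Removing the length trend from each library took medians from -0.60 to -0.24 for ribosomal proteins and from -0.35 to 0.01 for nuclear oxidative phosphorylation. It took the median from -0.23 to 0.12 for mitochondrially encoded genes and from -0.30 to 0.16 for histones. Quantile normalization took these 4 medians to -0.39, -0.06, 0.05 and -0.40 in the same order. The muscle lists kept medians of 0.57 for commitment and fusion and 0.57 for sarcomere genes with the length trend removed, and interferon genes a median of -0.24. The 2 WT libraries differed from each other more strongly with length, at a Spearman correlation of -0.483 for Em2 minus Em4.

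**Figure D3:**
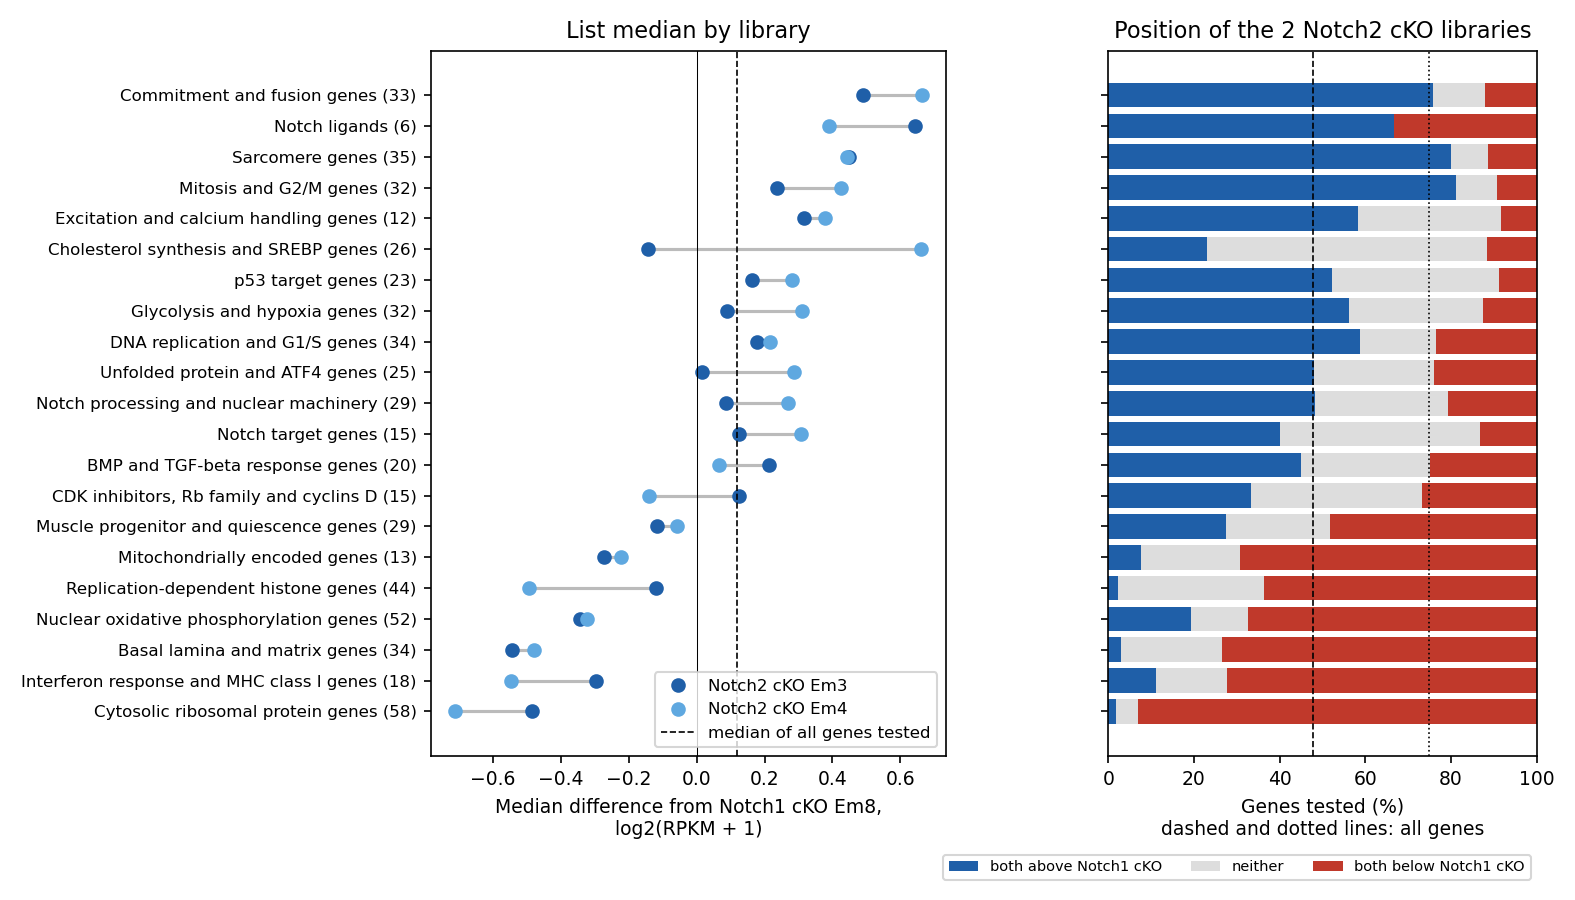
Left, the median difference from Notch1 cKO of each gene list (genes compared in parentheses) in the Notch2 cKO pair, in log2(RPKM + 1), with the median over all genes of 0.12 dashed. Right, the share of each list with both Notch2 cKO libraries above (blue) or both below (red) Notch1 cKO, where the dashed line marks the 47.7% above and the dotted line the start of the 25.2% below over all genes; muscle and mitosis lists lie to the right and matrix, interferon and ribosomal lists to the left.

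Some lists split the Notch2 cKO pair. Of 26 cholesterol synthesis genes, 17 lay on neither side, with a median of -0.14 in Em3 and 0.66 in Em4. Idi1, an enzyme of the pathway, was at 7.93 RPKM in Notch1 cKO and at 8.64 and 24.8 in Em3 and Em4. Heat-shock genes had a median of 0.60 in Em3 and -0.15 in Em4, with 7 of 17 above and 1 below. Hspa8, a constitutive chaperone, was above in both, at 227 RPKM against 349 and 414 (0.74, limma adjusted p = 0.526). Glycolysis and hypoxia genes were above for 18 of 32 and below for 4 (median 0.17), with the glucose transporter Slc2a1 at 6.57 RPKM against 11.2 and 17.8. Genes of the BMP and TGF-beta response (9 of 20 above, 5 below) and of the unfolded protein response (12 of 25 above, 6 below) were close to the share over all genes.

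Markers of other cell types differed between the knockouts beyond red cells and fibroblasts. The mast cell proteases Cma1 and Tpsb2 were called higher in Notch2 cKO. Cpa3 was called too, but it reached the filter only through its Notch2 cKO values, at a mean of 0.899 RPKM without them. Its direction was thus fixed by the filter, and nothing is read from it. Cma1 (chromosome 14, 55941451 to 55944675, minus strand) was at 0.437 RPKM in Notch1 cKO, 4.62 and 12.7 in the Notch2 cKO pair, and 1.52 and 4.55 in WT (2.61, SE 0.42, limma adjusted p = 3.26e-05). Cpa3 was at 0.189 RPKM against 2.62 and 6.995 (2.18, adjusted p = 0.000250) and Tpsb2 at 0.432 against 3.24 and 10.49 (2.28, adjusted p = 0.000336, 0.0796 without Em4). These were the 3 mast cell markers that reached the filter, and the 9 in the table summed to 1.39 RPKM in Notch1 cKO, 13.5 and 33.8 in Notch2 cKO, and 3.73 and 9.96 in WT. Of the 9, 3 were listed at 0 in Notch1 cKO, 0 in Em3, and 2 each in Em4 and both WT libraries.

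Cartilage genes were high in Em4 alone. Col9a2, a collagen of cartilage, was at 0.869 RPKM in Notch1 cKO and at 1.23 and 18.7 in the Notch2 cKO pair, with 0.984 and 3.36 in WT, and Mia, secreted by chondrocytes, at 1.79 against 2.81 and 29.7 (limma adjusted p = 0.0473 and 0.0245). Without Em4 both had an adjusted p of 0.9996. Leaving out WT Em2, then WT Em4, gave 0.243 and 0.220 for Col9a2 and 0.168 and 0.149 for Mia. Matn1 was at 0.137 RPKM against 0.120 and 24.2, and Col9a3 at 0.839 against 0.695 and 37.2; their calls were likewise lost without Em4 (0.9996), WT Em2 (0.286 and 0.314) and WT Em4 (0.267 and 0.291). Of 16 tendon and cartilage markers, 11 lay on neither side, with a median of -0.20 in Em3 and 2.58 in Em4. Members such as Matn3 (0.130 RPKM in Notch1 cKO, 0.304 in Em3, 7.95 in Em4) and Col9a1 (0.252, 0.347 and 10.1) reached the filter only through Em4. The filter thus helped set the Em4 median, and nothing is read from it. The tendon regulator Scx was similar throughout, at 37.9 RPKM against 34.2 and 31.3. The 20 markers summed to 84.1 RPKM in Notch1 cKO, 63.9 and 301 in the Notch2 cKO pair, and 57.9 and 93.3 in WT.

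Of 7 adipocyte markers compared, 6 had both Notch2 cKO libraries above Notch1 cKO and none both below (median 0.90). Car3, a carbonic anhydrase of adipocytes and slow muscle, was the called member, at 17.3 RPKM in Notch1 cKO, 40.8 and 45.9 in the Notch2 cKO pair, and 24.97 and 21.9 in WT (1.27, SE 0.33, limma adjusted p = 0.0473). Its call was lost without Em3 (adjusted p = 0.111), Em4 (0.525), WT Em2 (0.0669) or WT Em4 (0.0578). Fabp4, the most abundant marker, was at 56.9 RPKM against 92.5 and 75.4, and Cidea, a lipid droplet protein of brown fat, at 1.98 against 4.64 and 4.47. The 13 markers summed to 88.4 RPKM in Notch1 cKO, 161 and 146 in Notch2 cKO, and 101 and 64.8 in WT. Endothelial markers summed to 43.5 RPKM in Notch1 cKO and 25.6 and 30.1 in Notch2 cKO, with Egfl7 at 33.9 against 17.2 and 19.5. Haematopoietic markers summed to 18.1 RPKM against 14.9 and 35.7, and pericyte, Schwann and keratinocyte markers to 784, 11.6 and 35.8 in Notch1 cKO, against 805 and 859, 14.3 and 13.8, and 34.0 and 24.9 in Notch2 cKO. The part of these cells in the muscle, matrix and other gene values was not tested.

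**Figure D4:**
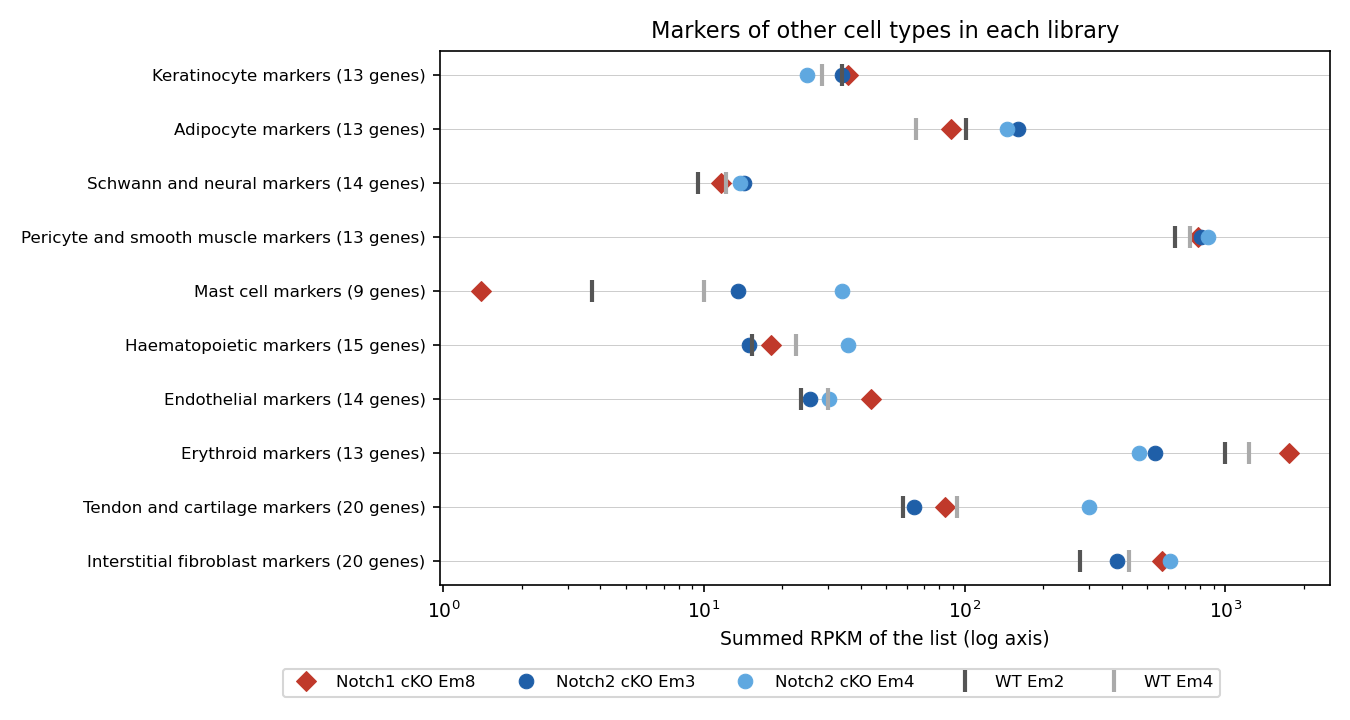
Summed RPKM of each marker list in each of the 5 libraries, on a log axis, with 1 symbol per library and no error bars. Notch1 cKO lies at the high end for erythroid and endothelial markers and at the low end for mast cell markers, and Em4 lies apart from the other 4 libraries for tendon and cartilage markers.

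The WT libraries place each called gene in 1 of 4 positions, as a description with no test. The library values that made the call also set its position. For called genes, the Notch2 cKO pair counted as outside only where both its libraries lay beyond the WT range on the side of the call. A single Notch2 cKO library, or the pair on opposite sides, could thus lie outside where only Notch1 cKO is counted. For the 6 genes that reached the filter only through Notch2 cKO, the filter also helped set the position, and nothing is read from it. They are counted below. Cpa3 and Snord57 had all 3 knockout libraries outside the WT range. Snora20 had only Notch1 cKO outside it, Mir3960 and Trbd1 only the Notch2 cKO pair, and Mir5124a neither. Cpa3 alone of them had a mean of 50 reads or more. Of the 30 genes called higher with both Notch2 cKO libraries above, 15 had Notch1 cKO and both Notch2 cKO libraries outside the WT range, as Dner, Casq2 and Pmaip1 did. In 8, Notch1 included, only Notch1 cKO was counted as outside it. In 6, among them Mybph, Sox8 and Rgs16, only the Notch2 cKO pair was, while the last, Mir5124a, had neither. Over all 5503 genes with both above, the shares were 38.00% for all 3 libraries outside, 16.46% for Notch1 cKO only, 20.30% for the Notch2 cKO pair only and 25.24% for neither. The shares over all genes count a value beyond the WT range on either side. They are therefore not like for like with the counts of called genes. Of the 24 called lower, 15 had all 3 knockout libraries outside, the globins, Crip1 and Ifi27 among them. In 8 only Notch1 cKO was counted as outside, among them Fosb, Ndufa4l2, Rarres2 and Dpt. For each of those named, Em4 also lay outside the WT range, and for Dpt Em3 did too. In 1, the non-coding RNA Lockd, only the Notch2 cKO pair was counted as outside. Over all 2905 genes with both below, again counted on either side of the WT range, the shares in the same order were 24.99%, 26.85%, 17.93% and 30.22%. Where calls rested on a mean of 50 reads or more, 14, 4, 4 and 0 of 22 called higher and 12, 6, 1 and 0 of 19 called lower held these positions.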

How the data were processed

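RNA of 5 libraries was prepared with a SMART-Seq v4 low-input kit, which does not mark strand, and read as paired ends, per the labels' protocols. The authors deposited RPKM values for 27179 rows, per the file headers. Of tools and builds, bcl2fastq 2.20.0 and mm10 appear, per the submitters' processing notes, and the aligner and counter were not given in the sources used here. The 1306 rows without a gene name, holding 2.19% to 3.07% of a library's summed RPKM, were left out. Columns name the group but no replicate, so each was assigned to its group only.

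Limma 3.58.1 in R 4.3.3 was run on log2(RPKM + 1), a pseudocount of 1, with 1 mean per group over all 5 libraries and a trended prior (2 residual and 103.8 prior degrees of freedom). It covered named genes averaging 1 RPKM or more, and its two-sided p-values were adjusted over all 11543. Whole reads were recovered from the RPKM steps: 97.6% of 7187 gene lengths came out whole within 0.02 bases, where 4% would by chance, and recovered reads made up 99.2% to 99.3% of each total. A value of 0 allows up to 3 reads, counting error only. Scripts were tested on simulated data.

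Members and all 34 gene lists were chosen with earlier results of these data known. The text names a fixed set of 25 Notch and muscle genes. It also names up to 12 called genes per direction, by largest difference, with a mean of at least 5 RPKM. Pseudogenes, numbered models and small RNAs were left out by name, which did not catch the small nuclear RNA Rnu7. Further genes named are up to 12 per direction by widest gap, up to 3 members of each list by widest gap and the most abundant marker. Members of the lists and called genes outside this rule were chosen after their values were seen. Examples are Nid2, Fos, H2-K1, Mki67, Sparc, Alas2, Hbb-y, Matn1, Col9a3, Ftl1-ps2 and Lockd. Gene positions are from GENCODE M21 on GRCm38, matched by symbol. Promoters were read from a RefSeq table, using the first listed start of a gene, with chromosome 18 left out.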

Additional observations from a re-analysis of the deposited data

How the results depend on the processing

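Against 56 genes in all, limma called 32 after median-of-ratios scaling (14 higher, 18 lower), 13 after quantile normalization (5 and 8), 14 with limma voom on recovered reads (5 and 9), 0 with no filter on low genes (983 genes at an unadjusted p under 0.05) and 0 with the gene length trend removed (915 at an unadjusted p under 0.05). The prior fell to 2.71 degrees of freedom with no filter and to 10.0 with the length trend removed, from 103.8. Leaving out single libraries gave 35 (without Notch2 cKO Em4; 22 higher, 13 lower) to 67 genes (without WT Em4; 25 and 42), with 59 without Em3 (45 and 14) and 59 without WT Em2 (22 and 37), and the 3 knockout libraries alone gave 57 (21 and 36). The remaining settings gave 40 to 65: pseudocounts of 0.1 and 0.5, a mean of at least 5 RPKM and a mean of at least 50 reads, the last chosen after seeing the data. With no filter, 13847 genes of 23440 had both Notch2 cKO libraries on 1 side, against 8408 of 11543. A gap of at least 1 was found for 107 genes, and for 232 with a pseudocount of 0.1 (173 above, 59 below). List medians under quantile normalization and with the length trend removed were added after seeing the data. Without Notch2 cKO Em4, the called genes Matn1 and Col9a3 reversed, to -0.02 and -0.12. No paired analysis was possible because Notch1 cKO is 1 library and the columns carry no replicate number. Depth limits the 13 called genes with a mean under 50 reads. With 1 Notch1 cKO library, every difference also holds whatever sets that library apart.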
